A study of Mus musculus with 9 samples.

Results

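The Mouse Gene 1.0 ST array carries a large set of regions that its annotation describes as non-coding RNA genes and that have no gene symbol in the deposited tables. A total of 1063 of 28266 probe sets had a description beginning with "ncrna:" and no symbol. Rows that held identical values on all 9 arrays were counted once, which left 983 regions with 972 distinct Ensembl gene identifiers. The class is the word the annotation gives. It put 478 regions in snRNA, 276 in snoRNA, 95 in miRNA, 95 in rRNA and 39 in misc_RNA, its word for other structured RNAs. The annotated lengths ran from 48 to 602 bases with a median of 108, as befits genes for small RNAs. The description gives 1 transcript per probe set, and 6 Ensembl identifiers are shared by several probe sets. Regions are named here by probe set, class and position on the mouse build NCBIM37.

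The arrays measured ovary RNA of 9 mice aged 3 weeks, with 1 array per mouse. There were 3 mice labelled wild type, 3 labelled heterozygous for a loss of Taf4b and 3 labelled Taf4b knockout. Taf4b encodes a subunit of TFIID, a general factor of RNA polymerase II transcription, that is enriched in the gonads. Neither the strain nor the targeted allele is stated in the labels. Taf4b intensity was 494, 635 and 723 in the wild types, 456, 595 and 574 in the heterozygotes, and 332, 626 and 403 in the arrays labelled knockout 1, 2 and 3. The array labelled knockout 2 lay within the wild-type range and so went against its label. The labelled knockouts differed from wild type by -0.48 ± 0.24 on the log2 scale (SE, n = 3; exact permutation p = 0.2, two-sided, where 0.1 is the smallest p that 3 against 3 arrays allow), so directions that rest on this label hold for the arrays as labelled. The labels do not say which part of Taf4b was targeted, so whether its probe set lies there is unknown. Median intensities of the arrays lay between 123.7 and 126.9, and precision is set by having 3 arrays per genotype. Of the markers of ovarian cells, 10 of 12 for oocytes, 8 of 8 for granulosa cells and 6 of 6 for theca cells had means above the median of all probe sets.

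Small nucleolar RNAs (snoRNAs) guide chemical modification of ribosomal RNA. The box C/D family directs ribose methylation, the box H/ACA family directs pseudouridylation, and box C/D members are as a rule shorter. Most mammalian snoRNAs are cut from the introns of host genes, many of which encode ribosomal proteins or long non-coding RNAs such as Gas5 and Snhg1. Small nuclear RNAs (snRNAs) form the core of the spliceosome, microRNAs (miRNAs) are processed from hairpin precursors and repress messenger RNAs, and the small ribosomal RNA, 5S, is made by RNA polymerase III from repeated genes. Growing oocytes store ribosomes and splicing machinery for the embryo. Genes for several of them have many near-identical copies and pseudogenes in the mouse genome. A probe set of such a family can read several copies, so a position below is the one the annotation gives and need not be the only source of signal. Signal at a snoRNA or miRNA region can come from the small RNA, its precursor or the host transcript, and these cannot be told apart on this array. In a whole organ, fewer cells of a type and less RNA per cell cannot be told apart either.

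Most of these regions gave little signal. The median of the regions' mean intensities was 16.8, against 125 for all probe sets, and 674 of the 983 regions (68.6%) fell in the lowest quartile of all probe sets, below an intensity of 37.9. The share in the lowest quartile was 85.1% for snRNA, 61.5% for misc_RNA, 54.7% for snoRNA, 52.6% for rRNA and 44.2% for miRNA regions. Only 125 regions had a mean above the median of all probe sets, and these brighter regions comprised 54 snoRNA, 32 miRNA, 18 snRNA, 15 rRNA and 6 misc_RNA regions.

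The brightest region of the set was a misc_RNA, 10426437 at chr15:93064794-93065102, whose mean intensity of 14550 ± 682 (SD, n = 9) ranked 11th of all probe sets. A second misc_RNA region, 10595140 at chr9:78023110-78023440, averaged 10616 ± 591. Both were steady, since the highest array exceeded the lowest by 1.17-fold and 1.18-fold. The brightest snoRNA regions were 10476106 at chr2:130103752-130103823 with a mean of 3686 ± 209, 10502949 at chr3:153574574-153574654 with 2736 ± 273, and 10582821 at chr8:129468747-129468880 with 2513 ± 167. These 3 also varied little, by 1.21-fold to 1.34-fold between the extreme arrays. The brightest miRNA regions, 10400708 (chr12:70662216-70662324), 10562649 (chr7:49860526-49860635) and 10579765 (chr8:76165295-76165404), had means of 2556, 2542 and 2153. Among rRNA regions, 10582580 at chr8:126123761-126123879 led with 3762 ± 1310, a far wider spread for a similar brightness. The brightest snRNA region, 10576795 at chr8:3803069-3803361, reached 779 ± 89.0.

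The regions varied more between arrays than probe sets in general, also among mice of 1 genotype. The median SD of log2 intensity over the 9 arrays was 0.14 for the regions and 0.11 for all probe sets. It was 0.18 for snoRNA, 0.16 for rRNA, 0.15 for miRNA, 0.12 for snRNA and 0.11 for misc_RNA regions. Among the brighter regions it was 0.22, against 0.11 for all probe sets of that brightness. Within genotypes the median SD was 0.13 for the regions and 0.11 for all probe sets. Patterns across the arrays stood out in a run on chromosome 7, in the shorter snoRNA regions and in the brighter rRNA regions.

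The first pattern lay on chromosome 7 and belonged to 1 mouse. A run of 50 snoRNA regions of 78 or 79 bases filled chr7:66599443-66874465, with a median spacing of 3736 bases between starts, and 6 more of 94 bases lay at chr7:66928831-67049734. Together they stood for 117 probe sets, because rows with identical values were counted once, and up to 23 probe sets shared 1 row. On the other 8 arrays all 56 regions were dim, at intensities between 4.51 and 21.6. On the array of heterozygote 1 they read up to 237. This array was the highest of the 9 at 54 of the 56 regions, and it exceeded every other array by more than 2-fold at 38, more than 5-fold at 25 and more than 10-fold at 19.

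The regions with the largest spread of all snoRNAs came from this run. Region 10564159 at chr7:66928831-66928924 read 11.6, 10.9 and 19.7 in the wild types, 233, 10.7 and 13.2 in the heterozygotes, and 9.48, 11.4 and 11.7 in the labelled knockouts. Region 10564183 at chr7:67016750-67016843 read 11.3, 11.6 and 21.6 in the wild types, 224, 11.6 and 12.2 in the heterozygotes, and 9.36, 12.3 and 12.7 in the labelled knockouts. Heterozygote 1 stood far above, and wild type 3 came second in both. Region 10564041 at chr7:66766304-66766382 read between 6.64 and 8.08 on 8 arrays and 142 in heterozygote 1, a 17.6-fold excess over the next array.

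**Figure D1:**
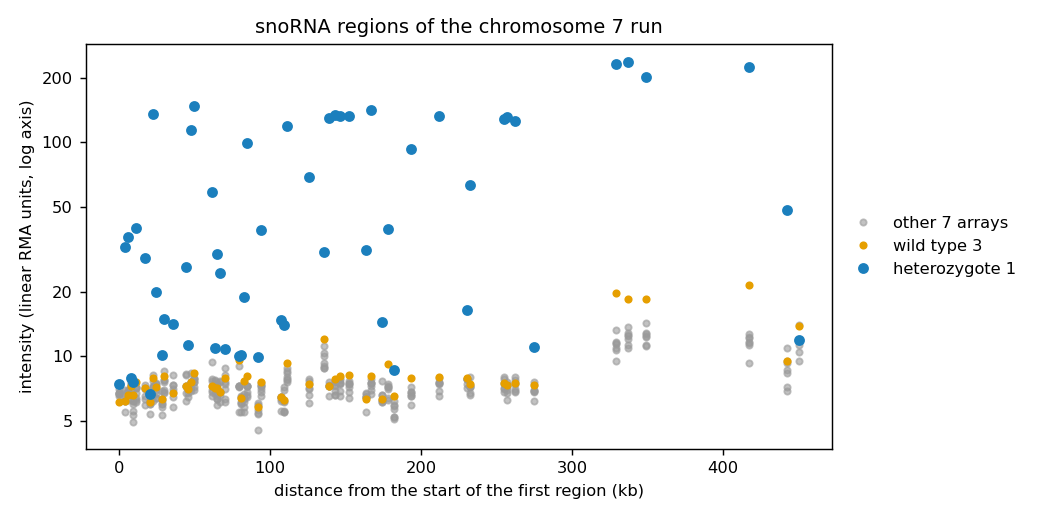
Intensity (linear RMA units, log axis) of the 56 snoRNA regions of the chromosome 7 run against distance from the first region in kb, with 1 point per region and array. Heterozygote 1 reaches 237 while the other 8 arrays stay at 21.6 or lower, and wild type 3 is second at 4 of the 6 regions on the right.

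Neighbouring regions within the run did not read alike. Region 10563913 at chr7:66621736-66621814 was raised 16.7-fold in heterozygote 1 over the next array, while 10563911, the region before it at chr7:66619866-66619944, read 6.67 there against a highest value of 6.69 elsewhere. The last of the 94-base regions, 10564209 at chr7:67049641-67049734, read 12.0 in heterozygote 1 and up to 14.0 on the other arrays, whereas 10564169 at chr7:66948590-66948683 read 202 against at most 18.5. These 4 regions were chosen after their values were seen.

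The files name a snoRNA by symbol, Snord116, whose probe sets 10564161, 10564163 and 10564177 moved alike. They are numbered among longer regions of the run, 10564159, 10564165, 10564169 and 10564183, which read 202 to 237 in heterozygote 1. Whether all these are copies of the same repeat was not tested, so Snord116 is no separate evidence. Snord116, a box C/D snoRNA repeated in an imprinted domain with Snrpn and best known from the brain, had 3 distinct rows, which read 241 to 257 in heterozygote 1 and 8.43 to 19.7 on the other arrays. Protein-coding genes of that domain did not follow. Snrpn, which encodes a spliceosomal protein, read 282 in heterozygote 1 and 218 to 294 elsewhere. Ndn read 1376 there and 1087 to 1521 elsewhere, and Ube3a, a ubiquitin ligase gene, read 708 there and 720 to 823 elsewhere. Of 10 neuron genes taken as a check after these values were seen, 9 were measured and 2 of these had a mean above the median of all probe sets. Their summed intensity of 805 in heterozygote 1 lay within the range of the other arrays, 717 to 961. Summed markers of red blood cells were highest in heterozygote 1, at 18626 against 11060 to 15768 elsewhere, and their part in the result was not tested.

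Heterozygote 1 stood apart beyond this run. It exceeded every other array by more than 2-fold at 306 of all probe sets, where each other array did so at 0 to 2. Identical rows were counted separately in these 306 probe sets, of which 151 had no symbol. The repeated rows of the run, up to 23 for 1 region, and of Snord116, up to 18, are therefore among the 306. With identical rows counted once, 42 regions of the non-coding set were among them, 38 of them in the run. The 4 outside the run were 3 miRNA regions and 1 snRNA region on chromosome 7, 10557175 at chr7:129408608-129408714. Log2 intensities of heterozygote 1 correlated with those of the other arrays at 0.984 to 0.988 across probe sets, while the highest correlation of each other array was 0.997 or 0.998. The heterozygote mean of the run therefore rested on 1 mouse. The median log2 difference between heterozygote and wild type over the 56 regions was 0.67 with heterozygote 1 and -0.04 without it.

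The second pattern concerned short snoRNA regions outside the run, and it crossed the genotypes. Of the 220 other snoRNA regions, 42 were 100 bases or shorter and 178 were longer, a division chosen after the values were seen. The median SD over the 9 arrays was 0.41 for the short regions and 0.13 for the long ones. The short regions' median deviation from their own means was -0.31, 0.09 and 0.15 in wild types 1, 2 and 3. It was -0.41, 0.22 and 0.55 in heterozygotes 1, 2 and 3, and -0.33, 0.36 and -0.34 in labelled knockouts 1, 2 and 3. Every genotype thus held arrays on both sides, and the lowest and the highest value were both heterozygotes. For the long regions, of which 48.3% lay in the lowest quartile against 21.4% of the short ones, the same medians stayed between -0.07 and 0.07. Among the 36 brighter long regions the medians ran from -0.17 in wild type 1 to 0.21 in heterozygote 3. Heterozygote 3 was the highest array at 20 of these 36 regions, so the pattern was not confined to the short regions.

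A group of 4 snoRNA regions at chr9:64022855-64025000 showed the pattern most clearly. Region 10586174 at chr9:64024930-64025000 read 92.7, 194 and 180 in the wild types, 74.5, 171 and 289 in the heterozygotes, and 74.6, 318 and 77.2 in the labelled knockouts. Its group means were 155 ± 54.7, 178 ± 108 and 157 ± 140 (SD, n = 3), so the 4.27-fold range between arrays left almost equal means. Its neighbour 10586170 at chr9:64023678-64023748 had the widest range of all short regions, 6.33-fold, from 28.9 in labelled knockout 3 to 183 in heterozygote 3. The genotypes overlapped in both regions.

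Heterozygote 3 was the highest array at 21 of the 42 short regions and labelled knockout 2 at 7, while heterozygote 1 was the lowest at 10, labelled knockout 3 at 13, and labelled knockout 1 and wild type 1 at 7 each. Labelled knockout 2 lay above both other labelled knockouts at 33 of the 42 regions (78.6%), against 32.3% of all probe sets. This was not particular to the short regions. The share was 77.8% of the 36 brighter long snoRNA regions and 71.9% of the 32 brighter miRNA regions. The order was not shared by every short region. At chr2:130101973-130103823, region 10476104 ranged from 21.6 in heterozygote 1 to 104 in heterozygote 3, while its very bright neighbour 10476106 stayed between 3362 and 4070. In all, 24 of the 42 short regions ranged over 2-fold and 7 ranged under 1.5-fold.

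**Figure D2:**
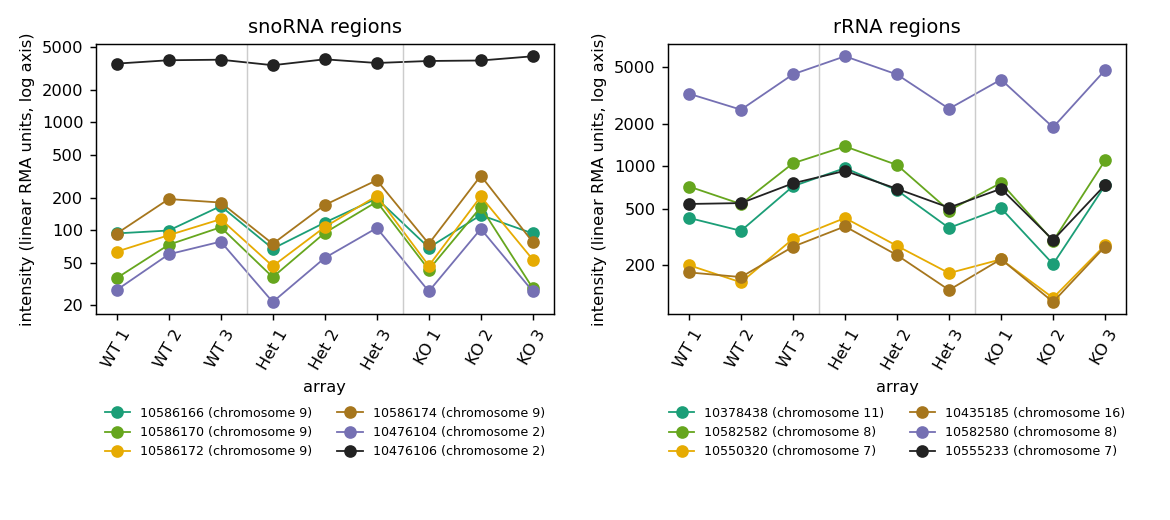
Intensity (linear RMA units, log axis) of 6 snoRNA regions and 6 rRNA regions on each array, grouped as wild type (WT), heterozygote (Het) and labelled knockout (KO). The chromosome 9 snoRNA regions are high in Het 3 and KO 2 and low in WT 1, Het 1, KO 1 and KO 3. At 10586166, WT 3 lies above KO 2. Region 10476106 stays level, and the rRNA regions peak in Het 1 and are lowest in KO 2.

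Some probe sets that the files do name varied in a similar way, and others did not. Of 4 distinct Gas5 rows, 10351035 read 230, 577 and 584 in the wild types, 286, 600.5 and 1001 in the heterozygotes, and 275, 889 and 239 in the labelled knockouts. The Gas5 row 10351026, in contrast, read 3484 to 4309 on all 9 arrays. Of 5 Snhg1 rows, 10461158 read 326, 676 and 642, then 332, 677 and 1418, then 272, 1148 and 286 in the same order of genotypes. Gas5 and Snhg1 are spliced non-coding transcripts that host box C/D snoRNAs in their introns. Rows 10351026 and 10351035 of Gas5 and 10461158 of Snhg1 were chosen after their values were seen. Over 5 Snora rows, named for H/ACA snoRNAs, the median deviation was 0.65 in heterozygote 3, 0.34 in labelled knockout 2 and -0.55 in labelled knockout 3. Over 7 rows of Snord genes other than Snord116 the order differed, with 0.32 in heterozygote 2, 0.30 in heterozygote 3, 0.003 in labelled knockout 2, -0.01 in labelled knockout 3 and -0.27 in labelled knockout 1. Over the 27 measured genes of the snoRNA host list, each taken at its brightest probe set, the median deviation stayed between -0.04 and 0.04 on all arrays, a narrower range than that of the short regions.

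Other measures of the tissue moved with these arrays. Summed theca markers, the steroid-producing cells around follicles, were highest in labelled knockout 2 and heterozygote 3, at 10451 and 7660, and lay between 3438 and 4569 elsewhere. Summed oocyte markers were lowest in the same arrays, at 17389 in labelled knockout 2 and 16727 in heterozygote 3, against 19235 to 27772 elsewhere. Heterozygote 1, which was lowest for the short snoRNA regions, had sums of 19864 for oocyte and 3870 for theca markers. Their part in the snoRNA pattern was not tested.

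The third pattern lay in the brighter rRNA regions. The median deviation of these 15 regions was -0.05, -0.21 and 0.15 in wild types 1, 2 and 3, 0.51, 0.21 and -0.25 in heterozygotes 1, 2 and 3, and 0.01, -0.61 and 0.24 in labelled knockouts 1, 2 and 3. Its sign was opposite to that of the short snoRNA regions in 6 arrays, heterozygotes 1 and 3, wild type 2 and the 3 labelled knockouts, and the same in the other 3. Heterozygote 1 was the highest array at 11 of the 15 regions and labelled knockout 2 the lowest at 10. The group at chr8:126064393-126125580 held 5 rRNA regions. The brightest, 10582580, read 3246, 2504 and 4448 in the wild types, 5961, 4436 and 2542 in the heterozygotes, and 4086, 1880 and 4759 in the labelled knockouts. Its group means were 3399 ± 981, 4313 ± 1713 and 3575 ± 1506 (SD, n = 3), with overlapping arrays.

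Further rRNA regions, on chromosomes 7 and 11 and in the chromosome 8 group itself, were also highest in heterozygote 1 and lowest in labelled knockout 2. Region 10378438 at chr11:74133294-74133412 read 432, 350 and 723 in the wild types, 971, 677 and 367 in the heterozygotes, and 506, 204 and 732 in the labelled knockouts. Region 10582582 at chr8:126125472-126125580 ranged 4.65-fold, from 297 in labelled knockout 2 to 1380 in heterozygote 1, and 10555233 at chr7:106646228-106646332 ranged 3.08-fold between the same arrays. The dimmer 10582572 at chr8:126108435-126108553 ranged 3.80-fold, again from labelled knockout 2 at 52.1 to heterozygote 1 at 198. Not every rRNA region followed. Region 10510505 at chr4:149191841-149191948 was highest in labelled knockout 2, at 517, and the longest of the set, 10589846 at chr9:113665478-113666079, varied by 1.10-fold. These last 2 regions were chosen after their values were seen.

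**Figure D3:**
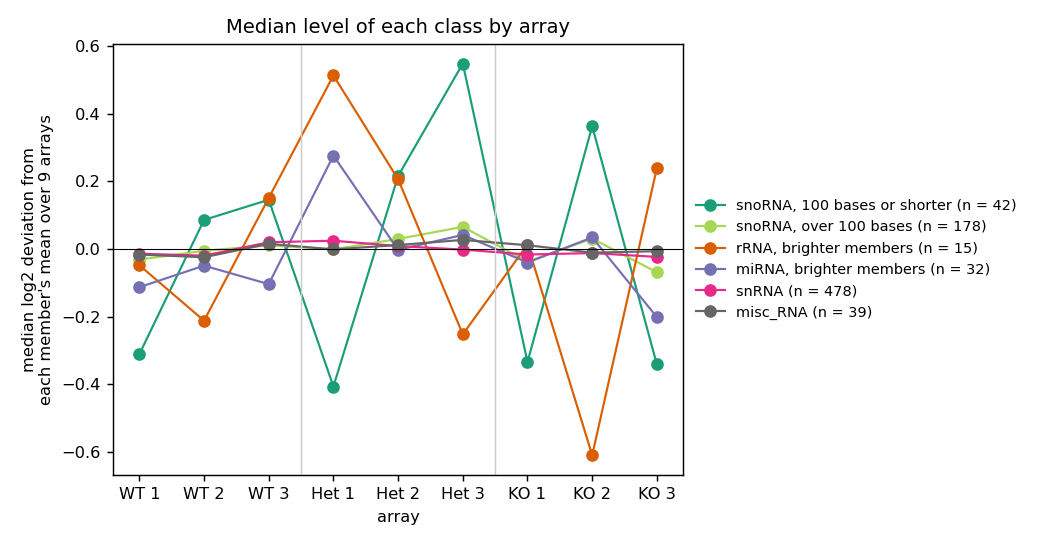
Median over each class of the log2 deviation of a region from its own mean over the 9 arrays (y axis, log2 units), by array and genotype (WT wild type, Het heterozygote, KO labelled knockout). Short snoRNA regions range from -0.41 to 0.55 and brighter rRNA regions from -0.61 to 0.51. The snRNA, misc_RNA and long snoRNA regions, drawn with their dim members, stay within 0.07 of zero. Their brighter members, not drawn, range from -0.19 to 0.17, -0.11 to 0.14 and -0.17 to 0.21. All 95 rRNA regions range from -0.04 to 0.10, so the classes drawn are not matched for brightness.

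The miRNA regions were chiefly marked by heterozygote 1. Of the 32 brighter miRNA regions, 31 lay above their own mean on this array, with a median deviation of 0.28, and it was the highest array at 25. Labelled knockout 3 was the lowest at 13. The 3 miRNA regions with the largest spread were all set by heterozygote 1. Region 10386756 at chr11:61427662-61427737 read 58.7, 42.3 and 43.1 in the wild types, 175, 46.8 and 55.0 in the heterozygotes, and 54.4, 62.5 and 62.4 in the labelled knockouts. Region 10367475 at chr10:128493666-128493770 read 524 in heterozygote 1 and 154 to 255 elsewhere, and 10551250 at chr7:27316203-27316312 read 66.5 there and 17.5 to 22.8 elsewhere.

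Several miRNA probe sets shared 1 annotated gene, so they are no separate evidence. The 5 probe sets described by chr15:82238888-82238973 had a median deviation of 0.68 in heterozygote 1 and -0.21 to 0.19 on the other arrays. The group beginning at chr12:70662216 held 4 miRNA probe sets of 1 Ensembl identifier and 1 snRNA region, and its median deviation ran from -0.31 in labelled knockout 3 to 0.20 in heterozygote 1. Of the 32 brighter miRNA regions, 16 ranged under 1.5-fold between their extreme arrays.

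The snRNA regions were the dimmest class and stayed level as a class, with median deviations between -0.02 and 0.02 on every array. For the 18 brighter snRNA regions the medians ran from -0.19 in labelled knockout 3 to 0.17 in heterozygote 2. A few snRNA regions varied widely. Regions 10347220 and 10347222 carry the same Ensembl identifier and the position chr11:83085000-83085190. The first read 489, 424 and 928 in the wild types, 721, 779 and 1147 in the heterozygotes, and 578, 830 and 603 in the labelled knockouts. Both were highest in heterozygote 3 and lowest in wild type 2, about 2.70-fold apart. Among dim regions, 10594798 at chr9:70369405-70369511 ranged 6.20-fold, from 7.41 in labelled knockout 3 to 46.0 in labelled knockout 2. Region 10506820 at chr4:108170649-108170751 ranged 3.88-fold, and in both regions the genotypes overlapped. Region 10376002 at chr11:53203904-53204010 read 10.4, 20.2 and 26.8 in the wild types, 34.7, 37.4 and 29.2 in the heterozygotes, and 17.3, 37.6 and 19.1 in the labelled knockouts. The heterozygotes lay above the wild types without overlap, by 0.92 ± 0.38 on the log2 scale (limma adjusted p = 0.812), and the labelled knockouts overlapped both.

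The misc_RNA regions were few and mostly level. The third brightest, 10459768 on chromosome 18, was also the second most variable of its class. It read 1339, 1768 and 2009 in the wild types, 1014, 2458 and 2343 in the heterozygotes, and 1475, 2551 and 1142 in the labelled knockouts. As in many short snoRNA regions, heterozygote 1 and labelled knockouts 1 and 3 were low and labelled knockout 2 was high. The most variable, 10554547 at chr7:88674741-88674867, read 44.8 in labelled knockout 2 and 13.9 to 29.6 elsewhere. Region 10455015 on chromosome 18 read 66.6 in wild type 3 and 61.9 in labelled knockout 3 and 32.0 to 43.5 elsewhere.

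None of the 983 regions differed between labelled knockout and wild type past the threshold of an adjusted p of 0.05 (limma, Benjamini-Hochberg over 28266 probe sets), where 0.046% of all probe sets did. The smallest adjusted p of a region was 0.319. The equal-variance test on linear intensities also called 0. At an unadjusted p under 0.05 there were 7 higher and 16 lower regions, 2.34% of the set, against 9.67% of all probe sets. The arrays of both genotypes did not overlap at 36 regions (3.66%), against 13.3% of all probe sets. The median log2 difference was -0.02 over the regions and -0.005 over all probe sets, with -0.04 for snoRNA, -0.02 for snRNA, 0.02 for miRNA, -0.03 for rRNA and 0.03 for misc_RNA regions. With quantile normalization it was 0.001 over the regions.

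The regions with the smallest p for this comparison were mostly dim, and none passed the test. The misc_RNA region 10595140, among the brightest of all probe sets, read 11585, 11216 and 10832 in the labelled knockouts and 9831, 10610 and 9920 in the wild types, with no overlap. Its log2 difference was 0.15 ± 0.06 (SE, n = 3; limma adjusted p = 0.436). The other regions on the higher side were the snRNA regions 10552286, 10421930, 10552260 and 10555177, with mean intensities of 5.81 to 29.7 and log2 differences of 0.16 to 0.27. On the lower side, the snRNA region 10523672 at chr5:104327898-104328004 read 46.6, 49.3 and 28.1 in the labelled knockouts against 60.4, 53.6 and 63.0 in the wild types. Its log2 difference was -0.55 ± 0.19 (limma adjusted p = 0.390). The snRNA regions 10471840, 10361129 and 10422011 had log2 differences of -0.35, -0.21 and -0.17. The last was the snoRNA region 10563903 of the chromosome 7 run, at intensities of 4.95 to 5.58 in the labelled knockouts and 5.98 to 6.59 in the wild types.

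Between heterozygotes and wild type, too, no region passed, and nor did any other probe set (0% of all probe sets; smallest adjusted p = 0.812, limma). The equal-variance test on linear intensities called 0 regions as well. The regions leaned to the heterozygotes. At an unadjusted p under 0.05, 55 were higher and 4 lower, 6.0% in all against 5.65% of all probe sets. Without overlap were 72 higher and 13 lower regions, 8.65% against 10.3% of all probe sets. The median log2 difference was 0.06 over the regions and 0.01 over all probe sets, with 0.12 for snoRNA, 0.10 for miRNA, 0.09 for rRNA, 0.04 for misc_RNA and 0.02 for snRNA regions. The median over the regions was 0.03 without heterozygote 1 and 0.02 with quantile normalization. Without heterozygote 1 the class medians were 0.06 for snoRNA, 0.05 for miRNA, 0.02 for rRNA, 0.06 for misc_RNA and 0.002 for snRNA regions.

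This lean was clearer in the brighter regions. Of the 125 brighter regions, 113 had a higher mean in the heterozygotes, with a median log2 difference of 0.17, where the median of all probe sets of that brightness was -0.02. The median was 0.25 for miRNA, 0.19 for rRNA, 0.19 for snRNA and 0.16 for snoRNA regions. Without heterozygote 1 it was 0.15 over the 125 regions. By array, their median deviation was -0.13, -0.03 and 0.01 in the wild types, 0.06, 0.06 and 0.10 in the heterozygotes, and -0.05, 0.06 and -0.13 in the labelled knockouts. The heterozygotes thus lay above the wild types in this summary, and labelled knockout 2 lay with them. Many of these regions moved together across arrays, so they are not 125 separate observations.

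The snRNA regions 10552260, 10491846, 10437735, 10558088 and 10500796 had the smallest p on the higher side, and their arrays did not overlap. Region 10437735 at chr16:11167198-11167360 read 72.5, 69.8 and 73.2 in the heterozygotes and 57.2, 54.2 and 61.4 in the wild types, a log2 difference of 0.32 ± 0.07 (limma adjusted p = 0.812). Region 10552260 at chr7:46539399-46539502 had the smallest p, with a log2 difference of 0.41 ± 0.08, and it read 37.9, 32.5 and 30.6 against 25.4, 26.5 and 24.1. The lower side held dimmer regions, 10406937 (rRNA), 10582260 and 10607493 (snoRNA), and 10395974 and 10416925 (snRNA), with means of 6.56 to 10.5 and log2 differences between -0.28 and -0.14.

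**Figure D4:**
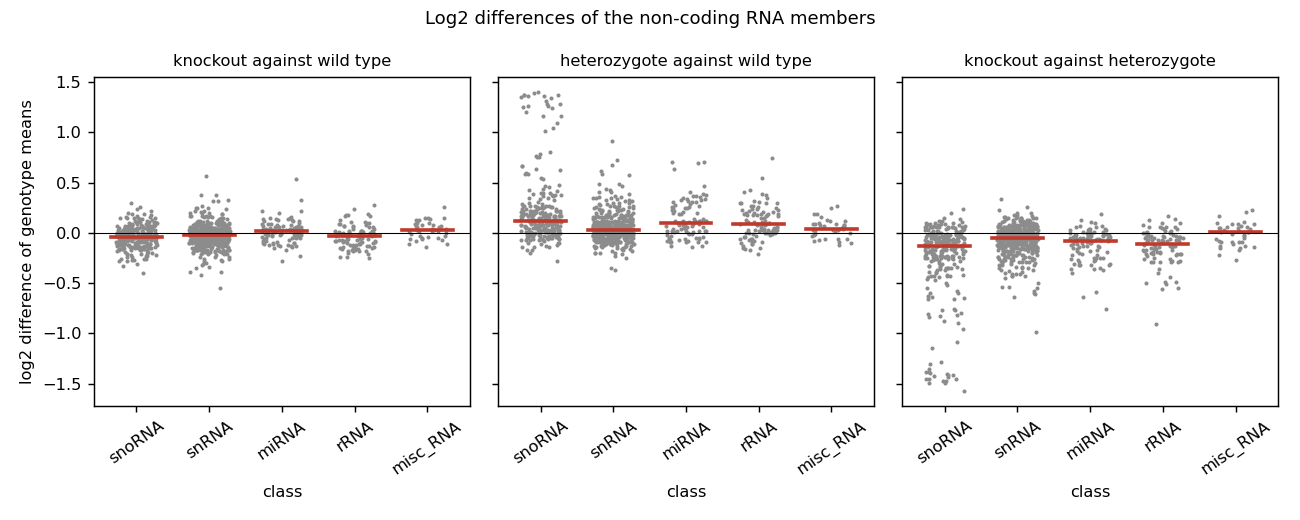
Log2 differences of genotype means (y axis, log2 units) for all 983 regions by class in the 3 comparisons, with 1 grey point per region and the class median as a red line. The 22 regions beyond 1 between heterozygote and wild type are snoRNA regions of the chromosome 7 run, and no point passes an adjusted p of 0.05.

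Against the heterozygotes, the labelled knockouts again showed no region past the threshold, where 0.0177% of all probe sets passed. The smallest adjusted p of a region was 0.141 (limma). The equal-variance test on linear intensities called 0. At an unadjusted p under 0.05, 3 regions were higher and 63 lower, 6.71% against 13.4% of all probe sets. Arrays did not overlap at 8 higher and 76 lower regions, 8.55% against 15.5% of all probe sets. The median log2 difference was -0.07 over the regions and -0.02 over all probe sets, and -0.01 over the regions with quantile normalization. Among the 125 brighter regions 109 were lower, with a median of -0.16, against 0.01 for all probe sets of that brightness. This comparison shares its heterozygote arrays with the one before, so the 2 leans are not independent.

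The largest of the smallest-p differences was at the snRNA region 10400803, chr12:71095777-71095876. It read 15.7, 23.1 and 12.7 in the labelled knockouts, 36.1, 31.9 and 30.9 in the heterozygotes, and 19.7, 19.2 and 23.1 in the wild types. The heterozygotes lay above all 6 other arrays, and the log2 difference between labelled knockout and heterozygote was -0.98 ± 0.19 (limma adjusted p = 0.144). It passed the test without labelled knockout 2 (log2 difference -1.22, limma adjusted p = 0.0323). When 1 array was left out, 0 to 55 of all 28266 probe sets passed in this comparison. Without both labelled knockout 2 and heterozygote 1, 4 of the 983 regions passed, against 268 of all 28266 probe sets, a larger share. All 4 regions were lower in the labelled knockouts. They were 10400803, the snRNA region 10408898 on chromosome 13, and the snoRNA regions 10398366 on chromosome 12 and 10590263 on chromosome 9.

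The snRNA region 10491846 at chr3:40796615-40796772 had the smallest p. It read 18.6, 19.1 and 19.5 in the labelled knockouts, 22.0, 23.9 and 24.2 in the heterozygotes and 19.5 to 19.8 in the wild types, a log2 difference of -0.29 ± 0.05 (limma adjusted p = 0.141). Regions 10563903 (snoRNA), 10558088 (snRNA) and 10416923 (rRNA) followed on the lower side, with log2 differences of -0.36, -0.27 and -0.28. On the higher side the regions were 10499950, 10552286, 10415084 and 10550494 (snRNA) and 10406937 (rRNA), with log2 differences of 0.13 to 0.26. Over the 3 comparisons, the regions with the smallest p numbered 24, and 19 of them had a mean in the lowest quartile of all probe sets.

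Genes for the proteins that build or process these RNAs were examined as 7 lists, each gene at its brightest probe set. No gene of any list passed the test in any comparison (limma, adjusted p over all probe sets). Core and assembly proteins of snoRNA particles leaned lower in the labelled knockouts, with 12 of 14 measured genes below wild type and a median log2 difference of -0.14. By array the list's median deviation was -0.14, -0.03 and -0.07 in the labelled knockouts and -0.05, 0.05 and 0.11 in the wild types. Labelled knockout 2 thus lay above wild type 1. Against heterozygotes 13 of the 14 genes were lower in the labelled knockouts, with a median of -0.14. At an unadjusted p under 0.05 there were 4 and 5 of the 14 genes in these comparisons, where the shares of all probe sets were 9.67% and 13.4%. Among all probe sets with a mean above the median these shares were 13.3% and 16.9%. Rrp9, a protein of the U3 snoRNA particle, had the smallest p against wild type, at -0.23 ± 0.06 (limma adjusted p = 0.294), and Gar1, a core H/ACA protein, the smallest against heterozygotes, at -0.37 ± 0.13 (limma adjusted p = 0.300).

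The list of snRNP assembly and Sm proteins, which wrap the spliceosomal snRNAs, showed the same lean. Against wild type 31 of 34 genes had a lower mean in the labelled knockouts, with a median of -0.13. Against heterozygotes 29 of 34 were lower, with a median of -0.15. At an unadjusted p under 0.05 there were 7 and 13 of the 34 genes in these comparisons, against the same 9.67% and 13.4% of all probe sets. The shares were 13.3% and 16.9% among all probe sets with a mean above the median. Both comparisons use the labelled knockout arrays. Smn1, whose protein loads Sm rings onto snRNAs, differed by -0.32 ± 0.07 from wild type (limma adjusted p = 0.174), and Lsm6, of the ring on U6 snRNA, by -0.44 ± 0.10 from heterozygotes (limma adjusted p = 0.184). The list's median deviation by array was -0.15, -0.07 and -0.05 in the labelled knockouts and -0.02, 0.02 and 0.12 in the wild types. Summed granulosa markers were lowest in labelled knockouts 1 and 3, at 17104 and 15716 against 19499 to 21162 elsewhere, and their part in this lean was not tested.

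The other lists were nearer to the median of all probe sets. The medians against wild type in the labelled knockouts were -0.08 for snRNA transcription and Integrator (20 genes), -0.07 for microRNA processing (20 genes), -0.05 for mitochondrial transcription and tRNA processing (17 genes), -0.02 for RNA polymerase III (22 genes) and -0.02 for the snoRNA host genes (27 genes). In this order they held 0, 2, 2, 1 and 1 genes at an unadjusted p under 0.05, where 9.67% of all probe sets did, so these counts were near or under the background. The genes with the smallest p were Ints9 of Integrator at -0.22, Ago3, which binds small RNAs, at -0.18, and Tfb1m, a mitochondrial rRNA methyltransferase, at -0.29. Crcp of RNA polymerase III differed by -0.14 and the host gene Tnpo1 by -0.17. The adjusted p of these 5 genes lay between 0.253 and 0.525 (limma).

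In the heterozygotes against wild type, the medians of the lists ran from -0.08 for microRNA processing to 0.02 for the host genes, and each list had 0 to 2 genes at an unadjusted p under 0.05, where 5.65% of all probe sets did. The genes with the smallest p were Nufip1 (0.12), Gas5 (0.13), Ints12 (-0.14), Lsm2 (-0.13), Tnrc6c (-0.20), Tfb1m (-0.14) and Brf2 (-0.25), all at an adjusted p of 0.812 (limma). Between labelled knockouts and heterozygotes, the smallest p in the remaining lists was that of Tnpo1 (-0.15), Snapc5 (-0.21), Ran (-0.31), Tfb1m (-0.15) and Polr3k (-0.14), with adjusted p of 0.274 to 0.436 (limma). Those lists had medians of -0.07 to 0.03 in this comparison and 0 to 2 genes at an unadjusted p under 0.05, against 13.4% of all probe sets.

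Summed markers of some other cell types differed between the genotypes. Summed macrophage markers were 1266 to 1846 in the labelled knockouts against 891 to 1069 in the other mice, with all 6 genes measured. Summed surface epithelium markers were 2789 to 3165 against 1785 to 2270, summed oviduct markers 700.2 to 930 against 378 to 581, and summed adipocyte markers 2424 to 2776 against 757 to 1959. The macrophage, surface epithelium, oviduct and adipocyte sums separated the labelled knockouts from the other genotypes by lack of overlap only. That rule is unlike the adjusted p that no non-coding RNA region passed. By lack of overlap, 36 regions (3.66%) separated labelled knockouts from wild types, against 13.3% of all probe sets. The part of the marker sums in the regions' differences was not tested.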

How the data were processed

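Ovary RNA of 9 mice was hybridised to Mouse Gene 1.0 ST arrays, 1 array per mouse, from 300 ng of RNA, per the series' design text. The authors made the deposited linear intensity values with RMA in Expression Console 1.1, per the same text, so background, array scaling and probe summary were fixed before deposit. The authors' deposited fold ratios and p-values between genotypes were not used for results. Every value column was matched to a sample by its name, and 0 were left unmapped.

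Regions were chosen by their description, and rows identical on all 9 arrays were counted once. Groups came from the labels. The labels do not say whether mice were littermates. Log2 intensities of all 28266 probe sets were fitted with limma 3.58.1 in R 4.3.3 (lmFit and eBayes, all 9 arrays), with two-sided tests, Benjamini-Hochberg adjustment over all probe sets and a threshold of 0.05. Taf4b was also tested with an exact permutation test. Tables were made in Python 3.11.15 with pandas 2.3.3, and the fit was tested on simulated data.

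Named regions are, per comparison, the 5 with the smallest p in each direction, since none was called, and per class the 3 brightest and the 3 with the largest SD. Of each gene list the gene with the smallest p per comparison is named. Clusters are regions with gaps of at most 50 kb. The regions and lists were chosen with earlier results of these data known. The chromosome 7 run, the division of snoRNA regions at 100 bases, the brighter regions, the neuron genes and the other regions named were chosen after values were seen. No sequences are shown, because none of the 972 Ensembl identifiers could be matched to the RefSeq sequences at hand and no genome of this build was used here.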

Additional observations from a re-analysis of the deposited data

How the results depend on the processing

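Over 20 alternatives per comparison, the number of regions past the threshold was 0 against wild type for both genotypes under every alternative run. Between labelled knockout and heterozygote it was 0 to 1 when 1 array was left out (1 without labelled knockout 2), 4 without labelled knockout 2 and heterozygote 1 together, and 0 otherwise. Of 575 values for named regions, 0 reversed and 2 passed the threshold, both at 10400803. Labelled knockout against wild type, 13 probe sets of the whole array passed in the reported fit, 3 on linear intensities, 0 with only the 6 arrays compared, 21 with trend and robust moderation, 30 without dim probe sets, 27 without the named pair of arrays and 2 to 17 when 1 array was left out. Against heterozygotes the corresponding count was 5, with 28 after centring on the regions, 1 on linear intensities, 2 without moderation, 0 with only 6 arrays, 16 without dim probe sets, 268 without the named pair and 0 to 55 when 1 array was left out. Regions whose arrays do not overlap numbered 36 against wild type in the labelled knockouts, with 68 under quantile normalization, 61 under median centring, 77 after centring on the regions, 5 without dim probe sets and 152 without the pair. The same counts were 85 for heterozygotes against wild type, with 41 and 196 in the last 2 settings. They were 84 against heterozygotes, with 127, 157, 34 and 372 under quantile normalization, centring on the regions, no dim probe sets and no pair. With fewer arrays a lack of overlap is easier to reach, and without dim probe sets fewer regions remain. Counts in those 2 settings are therefore not comparable with the others. The shares of all probe sets in these settings are not given here, so no result about the regions is drawn from the counts. The median difference over the regions ranged, leaving out 1 array, from -0.03 to 0.0005, from 0.03 to 0.07 and from -0.08 to -0.05 in the 3 comparisons. The span of the brighter rRNA regions' median between arrays was 1.12, and 0.51 without the pair. The short snoRNA regions' span of 0.96 was 0.89 without it. The added array-pattern alternatives were chosen after seeing the data, and other causes of these changes were not tested.

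With the replicate number as a replicate block, 0 regions passed in each comparison, and 0 probe sets of the whole array passed. Same-numbered arrays correlated at -0.20 to 0.35 in their deviations, so the numbers were not taken to pair mice. Most regions lie near background, which limits what a difference there can show.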

Other observations

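A group of 6 snoRNA regions lay at chr12:110869284-110925079. Its median deviation was 0.23 in labelled knockout 2, -0.27 and -0.23 in the other labelled knockouts, and between -0.04 and 0.11 in the other 6 arrays. Meg3, an imprinted long non-coding RNA, read 236, 252 and 252 in the wild types, 189, 274 and 379 in the heterozygotes, and 239, 783 and 201.5 in the labelled knockouts. Rian, a long non-coding RNA known to host snoRNAs in the same imprinted domain, read 100.5 to 111 in the wild types, 105 to 152 in the heterozygotes and 91.2 to 123 in the labelled knockouts. Meg3 was thus far higher in labelled knockout 2 than on any other array, while Rian was highest in heterozygote 2.

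An unnamed cDNA probe set, 10582888 at chr9:3001070-3002330, read 4775 in heterozygote 1 and 1262 in wild type 3, the arrays that read highest and second highest at 4 of the 6 longer regions of the chromosome 7 run. It read 238 in heterozygote 3 and 9.67 to 102 on the other arrays. These probe sets were chosen after their values were seen.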
